A study of Mus musculus with 24 samples.

Results

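The genes described here are Igf1 and 5 proteins that carry or bind its product in the circulation, Igfals, Igfbp1, Igfbp2, Igfbp3 and Igfbp4, read in total liver RNA of 24 mice. The 6 genes were chosen by name and not by a cutoff on a measured value, but with earlier results of these data known. Read counts per mouse were in hand for 4 of them (Igf1, Igfbp1, Igfbp2 and Igfbp4). The other 2, Igfals and Igfbp3, were not among the 1999 genes, of the 56748 that the study counted, whose counts were used here, and they are described by where they were listed in 9 deposited tables of gene set results. Ghr, the growth hormone receptor gene, was read beside them in every mouse, because the study removed it and then put it back.

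The mice formed 4 groups of 6, with 3 males and 3 females each. GHR+/+ mice had an intact receptor and GHR-/- mice (Laron mice) lacked a working one in every tissue; neither was injected, and their livers were taken at 21 weeks. The other groups carried the same receptor deletion, received 40000000000 vector genomes of an AAV8 vector in 1 injection at 4 to 5 weeks of age and were killed at 30 to 31 weeks. In both vectors the transgene was driven by HLP, a synthetic promoter active in liver, which drove mouse Ghr in AAV-HLP-mGHR mice and luciferase in AAV-HLP-Luc mice, the vector controls. By this design the transgene was meant to restore the receptor in liver only. Other organs of the injected mice were not measured here. Age and injection changed together with the group in GHR+/+ against AAV-HLP-mGHR as well as in AAV-HLP-Luc against GHR-/-, and in those comparisons they cannot be told apart from the receptor or the vector.

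Growth hormone binds its receptor on hepatocytes, and the receptor acts through the kinase JAK2 and the transcription factor STAT5, of which Igf1 is a target gene. Most IGF1 in blood comes from the liver and travels in a complex with IGFBP3 and the acid labile subunit (the product of Igfals), which lengthens its stay in the circulation. IGFBP1 is a small, short-lived binding protein whose gene is repressed by insulin and rises on fasting, IGFBP2 is another binding protein of the liver that is high when growth hormone is lacking, and IGFBP4 is an inhibitor of IGF action that the protease PAPP-A cleaves.

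The members lie on 4 chromosomes (GRCm39, GENCODE annotation). Igf1 (ENSMUSG00000020053) spans chr10:87693642-87772904 on the plus strand with 18 annotated transcripts, and Igfals (ENSMUSG00000046070) spans chr17:25084971-25100984 on the plus strand. Igfbp2 (ENSMUSG00000039323) is at chr1:72863606-72891634 on the plus strand. Igfbp1 (ENSMUSG00000020429, chr11:7147651-7152546, plus strand) and Igfbp3 (ENSMUSG00000020427, chr11:7156086-7164179, minus strand) are neighbours that point towards each other, with 3539 bases and 0 protein-coding genes between their annotated ends. Igfbp4 (ENSMUSG00000017493) is farther along the same chromosome, at chr11:98932064-98945218 on the plus strand.

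The sequence before the transcription start is shown for 4 of the 6 members, Igf1, Igfals, Igfbp1 and Igfbp2, to put the letters beside the values. The windows are the 250 bases before a RefSeq start (GRCm38.p6, an older build than the one used for the genes above), read 5′ to 3′ on the gene's strand: chr10:87860861-87861110 for Igf1, chr17:24877594-24877843 for the most upstream of 3 Igfals starts, chr11:7197537-7197786 for Igfbp1 and chr1:72824230-72824479 for the upstream Igfbp2 start. Capitals mark a match to 1 of 3 motifs searched on both strands. The motifs were the STAT5 core TTCNNNGAA, CAAAACA, which is only a part of an insulin response element, and the TATA box TATAAA. No match overlapped another.
Igf1: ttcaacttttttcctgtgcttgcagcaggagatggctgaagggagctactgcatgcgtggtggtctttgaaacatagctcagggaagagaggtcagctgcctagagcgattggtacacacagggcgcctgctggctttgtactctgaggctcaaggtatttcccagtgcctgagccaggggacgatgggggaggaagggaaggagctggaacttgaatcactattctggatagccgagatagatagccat
Igfals: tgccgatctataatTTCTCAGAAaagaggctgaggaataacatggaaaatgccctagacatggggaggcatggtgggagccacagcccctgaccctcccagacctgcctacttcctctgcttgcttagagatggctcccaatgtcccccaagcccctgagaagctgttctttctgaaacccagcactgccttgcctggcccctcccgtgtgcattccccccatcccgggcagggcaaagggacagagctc
Igfbp1: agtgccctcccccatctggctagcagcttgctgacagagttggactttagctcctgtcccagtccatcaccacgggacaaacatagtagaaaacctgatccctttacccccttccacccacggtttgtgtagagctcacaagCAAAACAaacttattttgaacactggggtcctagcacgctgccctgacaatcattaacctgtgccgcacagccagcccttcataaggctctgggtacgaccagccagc
Igfbp2: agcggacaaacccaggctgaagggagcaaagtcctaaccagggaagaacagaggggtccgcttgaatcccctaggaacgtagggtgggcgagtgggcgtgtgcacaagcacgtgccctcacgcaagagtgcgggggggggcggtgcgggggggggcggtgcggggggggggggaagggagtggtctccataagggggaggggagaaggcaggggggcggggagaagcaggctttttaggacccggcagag
The Igfals window held the STAT5 core TTCTCAGAA at positions -236 to -228 from its start, and the window of another Igfals start, at chr17:24877981-24878230, held TTCCTAGAA at -58 to -50. The Igfbp1 window held CAAAACA at -108 to -102. The Igf1 and Igfbp2 windows held none of the 3 motifs, and neither did that of Igfbp3, while that of Igfbp4 held TATAAA at -28 to -23. Over all 32851 RefSeq windows of the same length, 7.02% held the STAT5 core, 5.56% CAAAACA and 12.4% the TATA box. A match is therefore a description of these letters and no sign of use. A window without a match says only that those letters are not in these 250 bases.

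Counts were scaled to a common depth by 1 size factor per library (0.8287 to 1.26), and the summed counts of the genes in hand were 26453904 to 38194053 per library, with a median of 29715947. The genes in hand are well expressed, with a lowest mean count of 1123 over the 24 livers. A normalized read count compares a gene between mice, and FPKM (fragments scaled by gene length and library total) compares genes with each other. Differences between groups were fitted with limma-voom, and p-values were adjusted over all genes in hand. Each group's RNA is bulk liver RNA, in which fewer cells of a type and less RNA per cell cannot be told apart. Of the 8 hepatocyte markers listed, 7 were held. Their summed normalized count ran from 3068171 to 5826110 over the 24 livers, with overlapping ranges in all 4 groups. Most of that sum was Alb, with group means from 3148783 in GHR+/+ to 3726808 in AAV-HLP-mGHR livers. The sum therefore says little about the other markers.

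Ghr is given first, because it checks the labels. The lowest, median and highest normalized counts of Ghr were 18665, 22426 and 27559 in GHR+/+ livers, 2052, 2370 and 2654 in GHR-/- livers, 1416, 2769 and 3257 in vector control livers and 2615, 4137 and 4968 in AAV-HLP-mGHR livers. Reads of Ghr were thus still counted in every GHR-/- liver, at 10.5% ± 1.08 (SD, n = 6) of the GHR+/+ mean, and AAV-HLP-mGHR livers stood at 17.4% ± 3.60. Every GHR+/+ liver was above every liver of the other 3 groups, and 5 of 6 AAV-HLP-mGHR livers were above all AAV-HLP-Luc livers. GHR+/+ exceeded GHR-/- by 3.26 ± 0.10 on the log2 scale (SE, limma adjusted p = 5.1e-10), a 9.55-fold difference. AAV-HLP-mGHR exceeded AAV-HLP-Luc by 0.63 ± 0.21 (limma adjusted p = 0.176; exact permutation p = 0.0152). Reads of the vector's Ghr and of the mouse's own disrupted gene are not separated in these counts.

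Igf1, the hormone's main growth effector, was higher with the receptor in all 3 comparisons in which the receptor differed, which share the GHR+/+ and AAV-HLP-mGHR livers among them. In GHR+/+ males its normalized counts were 17829, 21915 and 27995, and in GHR+/+ females 23273, 26389 and 26994. In GHR-/- males they were 278, 287 and 364, and in GHR-/- females 1180, 1343 and 2242. Every GHR-/- liver was far below every GHR+/+ liver, and within the GHR-/- group the males were below the females. In AAV-HLP-Luc males the counts were 234, 272 and 296, and in AAV-HLP-Luc females 608, 1095 and 1194. In AAV-HLP-mGHR males they were 5216, 6952 and 8719, and in AAV-HLP-mGHR females 9580, 11516 and 17075. The 6 AAV-HLP-mGHR livers lay in a gap of their own, above all 12 livers without a receptor transgene or intact gene and below all 6 GHR+/+ livers.

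**Figure D1:**
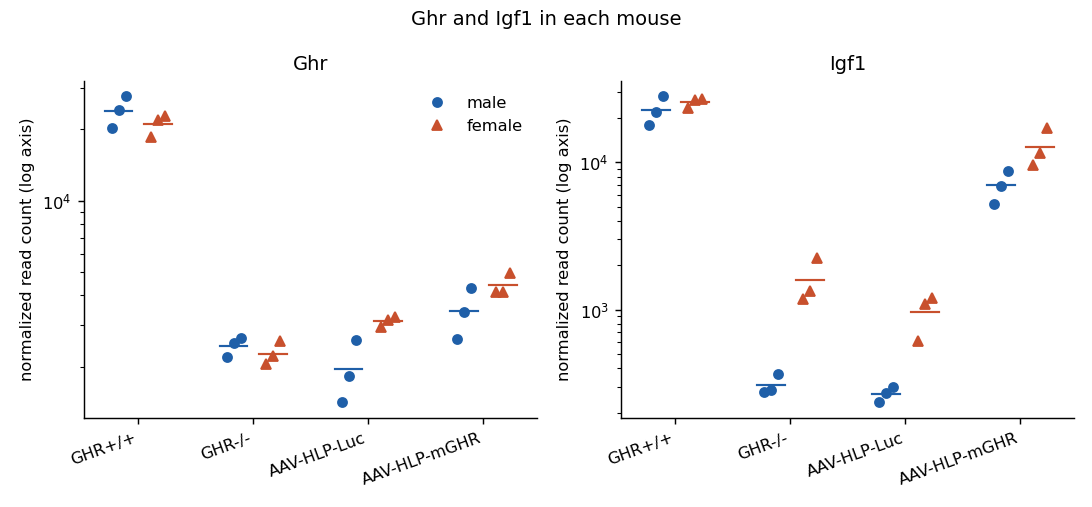
Normalized read counts of Ghr (left) and Igf1 (right) in each of 24 livers, on log axes, by group and sex; each point is 1 mouse and each line the mean of 3 mice. AAV-HLP-mGHR livers held 17.4% of the GHR+/+ mean of Ghr and 40.9% of that of Igf1, and in the 3 groups of GHR-/- mice every male lies below every female for Igf1.

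Igf1 stood at 3.94% ± 3.28 (SD, n = 6) of the GHR+/+ mean in GHR-/-, at 2.56% ± 1.79 in vector control and at 40.9% ± 17.3 in AAV-HLP-mGHR livers. On the log2 scale it rose by 4.10 ± 0.64 in AAV-HLP-mGHR livers against the vector controls (limma adjusted p = 0.00704; exact permutation p = 0.00216, the smallest that 6 against 6 mice can give), a 17.2-fold difference. In 1 fit over all 24 libraries the difference was 4.08 and missed the threshold (limma adjusted p = 0.0734). In that comparison 1.55% of all genes tested passed the limma threshold and 2.35% had groups that did not overlap; of the 4 members, 2 passed (Igf1 and Igfbp2) and 3 did not overlap (those and Igfbp1). GHR+/+ exceeded GHR-/- by 4.93 ± 0.48 (limma adjusted p = 7.58e-05), a 30.4-fold difference. There 24.6% of all genes passed and 13.8% did not overlap, against 3 of 4 members for each. GHR+/+ exceeded AAV-HLP-mGHR by 1.38 ± 0.25 (limma adjusted p = 0.00609), a 2.60-fold difference. In that comparison 11.4% of all genes passed and 6.2% did not overlap, and the members were 2 of 4 (Igf1 and Igfbp2) and 1 of 4 (Igf1). AAV-HLP-Luc and GHR-/- differed by -0.46 ± 0.71 in Igf1 (limma adjusted p = 0.970), with overlapping ranges.

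Igfbp1, the binding protein gene that insulin represses, had its lowest median in GHR+/+ livers and its highest in vector control livers. The lowest, median and highest normalized counts were 249, 749 and 2181 in GHR+/+, 4620, 6677 and 16639 in GHR-/-, 11439, 17905 and 42436 in vector control and 1102, 3584 and 8677 in AAV-HLP-mGHR livers. All GHR+/+ livers were below all GHR-/- livers, and all AAV-HLP-mGHR livers were below all AAV-HLP-Luc livers. The 3 lowest AAV-HLP-mGHR livers (1102, 1462 and 1960) lay within the GHR+/+ range, and the 3 highest (5209, 8619 and 8677) within the GHR-/- range. Igfbp1 was lower in GHR+/+ than in GHR-/-, with a log2 fold change of -3.21 ± 0.95 (limma adjusted p = 0.0264), a 9.27-fold difference. That call was lost in 4 of the 12 fits that left out 1 mouse, namely without GHR+/+ male 101, male 102, female 119 or female 120, where the limma adjusted p ran from 0.0582 to 0.0966, and in 1 fit over all 24 libraries (0.270). Against AAV-HLP-Luc, AAV-HLP-mGHR gave a log2 fold change of -2.51 ± 0.58, a 5.71-fold difference that did not pass the threshold (limma adjusted p = 0.0512; exact permutation p = 0.00216). It passed with limma-trend in place of voom (0.0346), in 1 fit over all libraries (0.00850) and without AAV-HLP-mGHR male 012, female 022 or female 024 (0.0277 to 0.0491).

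The difference in Igfbp1 between GHR+/+ and AAV-HLP-mGHR, -1.99 ± 2.68 (limma adjusted p = 0.646), had the widest error of any member. The exact permutation test gave p = 0.0173, and limma-trend gave -2.20 (adjusted p = 0.0421). Of the 6 AAV-HLP-Luc livers, 4 were above every GHR-/- liver and 2 (11439 and 13000) within the GHR-/- range. The log2 fold change of AAV-HLP-Luc against GHR-/- was 1.28 ± 0.37 and did not pass (limma adjusted p = 0.951; exact permutation p = 0.0195). In that comparison 0% of all genes passed the limma threshold, with 68 at an unadjusted p under 0.05, and 0.1% did not overlap between the groups; none of the 4 members passed, and all 4 overlapped. Within 1 sex these groups did not overlap in Igfbp1, at 0.71 ± 0.31 in males and 1.86 ± 0.46 in females. Neither passed (limma adjusted p = 0.611 and 0.620), and exact permutation gave p = 0.1, the smallest for 3 against 3 mice. Igfbp4 did not overlap in males only, and Igf1 and Igfbp2 overlapped in both sexes. The share of all genes that did not overlap within 1 sex was not counted. The 0.1% above is for 6 against 6 mice and is no measure for 3 against 3, so these separations do not set the members apart. Whether the mice had eaten before their livers were taken is not given in the sources used here, and its part in the spread of Igfbp1 was not tested.

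Igfbp2, the second binding protein gene, was also lower wherever the receptor was present, with smaller steps and less spread. The lowest, median and highest normalized counts were 7941, 12059 and 19860 in GHR+/+, 26338, 37834 and 66101 in GHR-/-, 28395, 51317 and 66800 in vector control and 15564, 20541 and 27875 in AAV-HLP-mGHR livers. The highest AAV-HLP-mGHR liver (27875) was just below the lowest AAV-HLP-Luc liver (28395), and of the 6 AAV-HLP-mGHR livers 3 were within the GHR+/+ range and 3 above it. On the log2 scale Igfbp2 fell by 1.21 ± 0.20 in AAV-HLP-mGHR livers against the vector controls (limma adjusted p = 0.00830), a 2.32-fold difference. It was lower in GHR+/+ than in GHR-/-, with a log2 fold change of -1.71 ± 0.27 (limma adjusted p = 0.00146), a 3.27-fold difference. Against AAV-HLP-mGHR the GHR+/+ livers were lower still, with a log2 fold change of -0.83 ± 0.23 (limma adjusted p = 0.0414; exact permutation p = 0.0152), a 1.77-fold difference between groups that overlapped. This last call was lost in 9 of the 12 fits that left out 1 mouse, where the limma adjusted p reached 0.0857; it was kept without AAV-HLP-mGHR male 007, GHR+/+ female 119 or GHR+/+ female 121.

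Igfbp4, an inhibitory binding protein gene, was the highest of the 3 in GHR+/+ livers, and none of its differences between groups passed the threshold. The lowest, median and highest normalized counts were 53017, 64579 and 67844 in GHR+/+, 54292, 62131 and 69302 in GHR-/-, 64625, 74330 and 83646 in vector control and 59064, 74839 and 84317 in AAV-HLP-mGHR livers. All 4 ranges overlapped. The log2 fold changes were -0.01 ± 0.10 for AAV-HLP-mGHR against vector control (limma adjusted p = 0.984) and -0.01 ± 0.09 for GHR+/+ against GHR-/- (limma adjusted p = 0.935). The injected groups, which were also the older ones, had the higher medians. GHR+/+ against AAV-HLP-mGHR gave -0.27 ± 0.10 (limma adjusted p = 0.0969; exact permutation p = 0.0216) and AAV-HLP-Luc against GHR-/- gave 0.25 ± 0.10 (limma adjusted p = 0.951; exact permutation p = 0.0173). Neither passed the threshold, although the first did without AAV-HLP-mGHR male 012 (limma adjusted p = 0.0406).

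**Figure D2:**
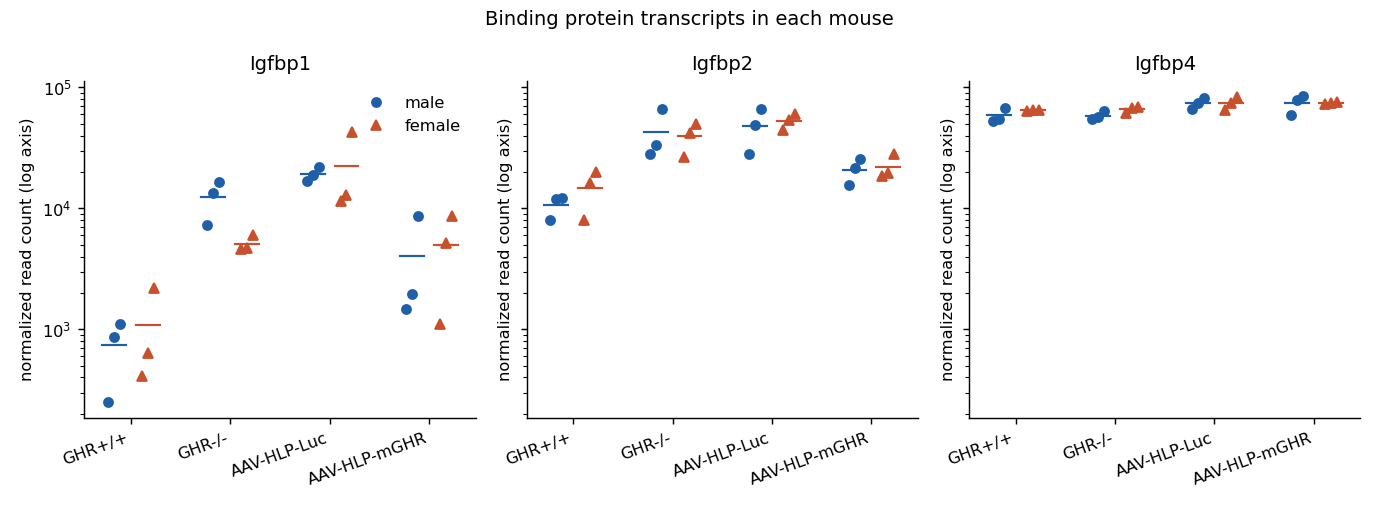
Normalized read counts of Igfbp1, Igfbp2 and Igfbp4 in each of 24 livers, on 1 shared log axis, by group and sex; each point is 1 mouse and each line the mean of 3 mice. Igfbp1 ran from 249 in the lowest GHR+/+ liver to 42436 in the highest AAV-HLP-Luc liver, while Igfbp4 stayed between 53017 and 84317 in all 24.

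**Figure D3:**
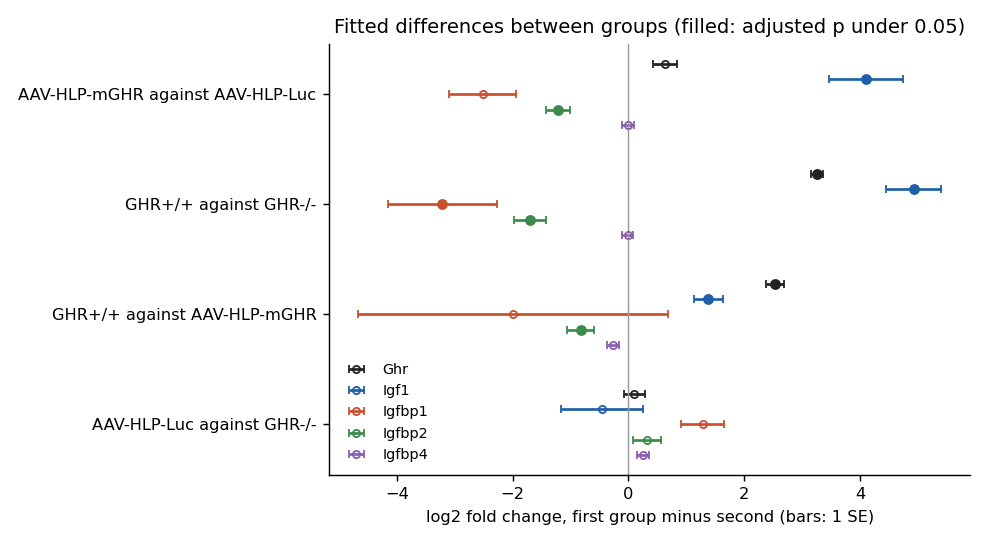
Fitted log2 fold changes of Ghr, Igf1, Igfbp1, Igfbp2 and Igfbp4 in 4 comparisons of 6 against 6 mice, first-named group minus second, with bars of 1 SE; filled points passed a limma adjusted p of 0.05. Igf1 lies to the right and Igfbp1 and Igfbp2 to the left of 0 in the 3 comparisons in which the receptor differed, and Igfbp4 lies within 0.27 of 0 in all 4.

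Per length, the 3 binding protein transcripts together exceeded Igf1 in every liver, by factors that differed widely between groups. Mean FPKM of Igf1 was 64.4 ± 12.1 (SD, n = 6) in GHR+/+, 2.64 ± 2.27 in GHR-/-, 1.66 ± 1.19 in vector control and 26.7 ± 11.1 in AAV-HLP-mGHR livers. In GHR+/+ livers the order of mean FPKM was Igfbp4 (369 ± 49.7), Igfbp2 (181 ± 67.7), Igf1, then Igfbp1 (15.5 ± 11.6), and the ranges of these 4 did not overlap. In GHR-/- livers Igfbp2 (593 ± 205) came first, then Igfbp4 (379 ± 46.9) and Igfbp1 (153 ± 85.9), with Igf1 last. In AAV-HLP-Luc livers the order was Igfbp2 (725 ± 193), Igfbp4 (447 ± 62.7), Igfbp1 (368 ± 216), Igf1. In both groups without a receptor the ranges of Igfbp2 and Igfbp4 overlapped, and in AAV-HLP-Luc that of Igfbp1 overlapped both. In AAV-HLP-mGHR livers Igfbp4 was first again (454 ± 65.7), then Igfbp2 (312 ± 64.3), and Igfbp1 (77.8 ± 59.5) was above Igf1 in the mean. There the ranges of Igfbp4 and Igfbp2 overlapped, and so did those of Igfbp1 and Igf1.

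The FPKM of Igfbp1, Igfbp2 and Igfbp4 was summed in each liver and divided by the FPKM of Igf1, as a description of how much binding protein transcript stood beside each unit of Igf1 transcript. The lowest, median and highest ratios were 6.75, 9.36 and 11.2 in GHR+/+, 144, 868 and 1437 in GHR-/-, 416, 1290.1 and 2713 in vector control and 18.9, 34.4 and 62.6 in AAV-HLP-mGHR livers. The GHR+/+ and AAV-HLP-mGHR ranges were clear of each other and of both groups without a receptor. The numerator moved less than the denominator: the summed FPKM averaged 566 ± 92.8 in GHR+/+, 1125 ± 150 in GHR-/-, 1540 ± 359 in vector control and 844 ± 65.5 in AAV-HLP-mGHR livers. The makeup of the sum moved as well. Igfbp4 made up 65.9% of it in GHR+/+, 34.4% in GHR-/-, 29.6% in vector control and 54.0% in AAV-HLP-mGHR livers, while Igfbp1 made up 2.68%, 14.0%, 23.1% and 9.23%. Igfbp2 made up 31.4%, 51.6%, 47.2% and 36.8% in the same order of groups. The FPKM values are the authors' own, and Igfbp3 and Igfals are not part of the sum.

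**Figure D4:**
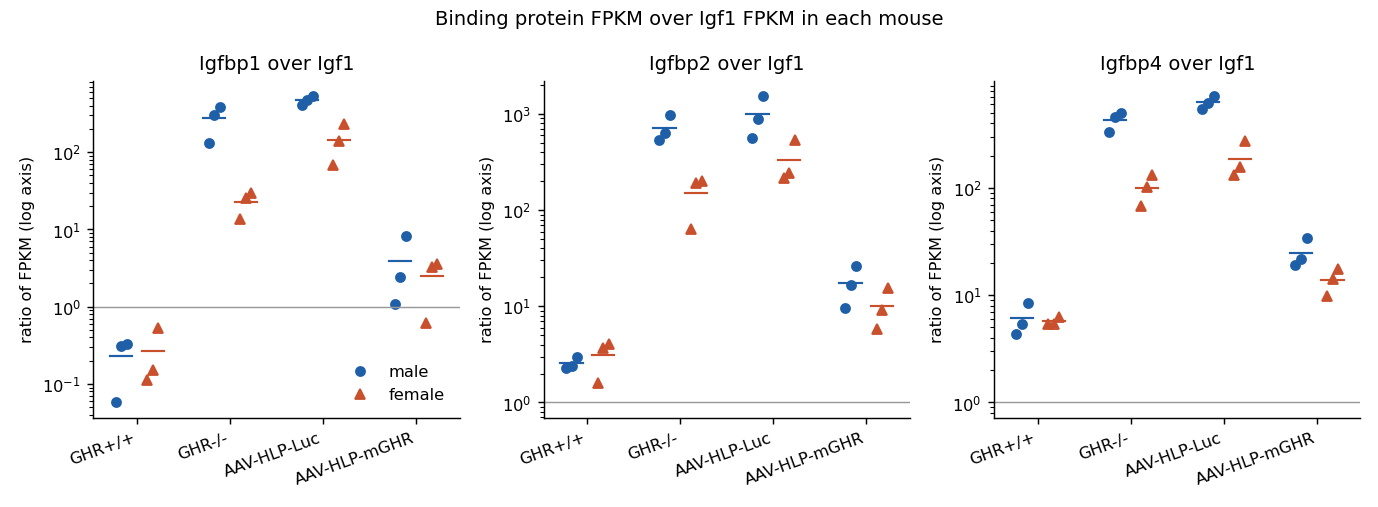
FPKM of Igfbp1, Igfbp2 and Igfbp4 over the FPKM of Igf1 in each of 24 livers, on log axes, by group and sex; each point is 1 mouse, each line the mean of 3 mice and the grey line a ratio of 1. Only Igfbp1 fell below a ratio of 1, in all 6 GHR+/+ livers and 1 AAV-HLP-mGHR female.

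In Igf1 the males lay below the females in the 3 groups of GHR-/- mice, but no difference between the sexes passed the threshold. GHR+/+ males and females overlapped, with a male to female log2 fold change of -0.20 ± 0.18 (limma adjusted p = 0.477). In GHR-/- livers every male was below every female, with a log2 fold change of -2.36 ± 0.49 (limma adjusted p = 0.218), a 5.15-fold difference. In AAV-HLP-Luc livers the same held with -1.87 ± 0.64 (limma adjusted p = 0.308), and in AAV-HLP-mGHR livers with -0.85 ± 0.27 (limma adjusted p = 0.221). An exact permutation test of 3 against 3 mice cannot go below p = 0.1, which is what each of these 3 gave. No member passed the limma threshold between the sexes in any group; the share of all genes that passed was 13.1% in GHR+/+, 0.0501% in GHR-/-, 0.1% in vector control and 0.05% in AAV-HLP-mGHR livers. The share of all genes whose sexes did not overlap was 38.9%, 12.9%, 27.3% and 23.4% in the same order, against 0, 2, 1 and 1 of the 4 members. Igfbp1 was the other member in GHR-/-, where males (7307, 13393 and 16639) were above females (4620, 4691 and 6047). Its log2 fold change of 1.21 ± 0.29 did not pass (limma adjusted p = 0.293), though it did without GHR-/- male 113, where it was 1.55 (0.0184).

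Relative to GHR+/+ mice of the same sex, Igf1 stood at 1.37% ± 0.210 (SD, n = 3) in GHR-/- males and 6.22% ± 2.24 in GHR-/- females. It stood at 1.19% ± 0.138 in AAV-HLP-Luc males and 3.78% ± 1.23 in AAV-HLP-Luc females, and at 30.8% ± 7.76 in AAV-HLP-mGHR males and 49.8% ± 15.2 in AAV-HLP-mGHR females. The rise of Igf1 with AAV-HLP-mGHR was 4.69 ± 0.57 on the log2 scale in males (limma adjusted p = 0.0359) and 3.68 ± 0.37 in females (limma adjusted p = 0.0178). The test of the difference between those rises did not pass (0.99 ± 0.65, limma adjusted p = 0.711), in a comparison in which 0% of all genes passed and 128 had an unadjusted p under 0.05. The fall of Igf1 without the receptor was 6.17 in males and 3.97 in females, both as GHR+/+ minus GHR-/-, and that difference of 2.22 ± 0.87 did not pass either (limma adjusted p = 0.297), where 0.9% of all genes did. The remaining gap to GHR+/+ was 1.69 ± 0.24 in males (limma adjusted p = 0.00536) and 1.04 ± 0.23 in females (limma adjusted p = 0.109). The ratio of summed binding protein FPKM to Igf1 FPKM averaged 1418 ± 26.4 in GHR-/- males and 274 ± 113 in GHR-/- females, and 2088 ± 559 in AAV-HLP-Luc males and 664 ± 266 in AAV-HLP-Luc females, with no overlap of the sexes in either group. It averaged 46.2 ± 15.3 in AAV-HLP-mGHR males and 26.5 ± 9.07 in AAV-HLP-mGHR females, and 8.90 ± 2.25 in GHR+/+ males and 9.10 ± 1.66 in GHR+/+ females, and in these groups the sexes overlapped.

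The males and females of every group overlapped in Igfbp2. The male to female log2 fold change was -0.38 ± 0.35 in GHR+/+, 0.05 ± 0.35 in GHR-/-, -0.21 ± 0.32 in vector control and -0.07 ± 0.24 in AAV-HLP-mGHR livers. Fitted within 1 sex, its difference between AAV-HLP-mGHR and vector control livers was -1.14 ± 0.35 in males and -1.27 ± 0.21 in females, with limma adjusted p = 0.335 and 0.0773 at 3 mice a side. In Igfbp4 the widest difference between the sexes was -0.18 ± 0.13, in GHR-/- livers. Ghr itself was lower in AAV-HLP-Luc males (1416, 1838 and 2598) than in AAV-HLP-Luc females (2939, 3163 and 3257), with a log2 fold change of -0.69 ± 0.21 (limma adjusted p = 0.298).

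Whether the members tracked Ghr or Igf1 from mouse to mouse, apart from group and sex, was asked of the deviations of each mouse from the mean of its sex and group. Over the 24 mice Igf1 and Ghr gave Pearson's r = 0.0652 and Spearman's rho = -0.00435. Exact permutation within the 8 sex-by-group sets gave p = 0.768 and 0.979, and 11 of 24 mice deviated the same way in both genes. The GHR-/- and AAV-HLP-Luc mice among them had no working receptor. Correlations with Ghr over all mice therefore cannot tell how a member follows Ghr where the receptor works. Within AAV-HLP-mGHR livers alone no correlation of Igf1 with Ghr was computed, because the sexes did not overlap in Igf1. With Ghr, Igfbp1 gave r = 0.0689 (rho 0.0226), Igfbp2 gave r = 0.159 (rho 0.0878) and Igfbp4 gave r = -0.283 (rho -0.238), with exact permutation p = 0.787, 0.591 and 0.386. With Igf1, Igfbp1 gave r = 0.0572 (rho 0.0252), Igfbp2 gave r = -0.282 (rho -0.356) and Igfbp4 gave r = -0.0510 (rho -0.00522), with exact permutation p = 0.835, 0.162 and 0.853. After Benjamini-Hochberg adjustment over the 7 pairs every Pearson p was 0.853, and the lowest Spearman p, that of Igf1 and Igfbp2, was 0.749. Leaving out the 2 mice farthest from the median of the gene on the x axis moved r to 0.184 for Ghr and Igf1, to -0.539 for Ghr and Igfbp4 (exact permutation p = 0.137) and to -0.0864 for Igf1 and Igfbp2. The mice left out were AAV-HLP-Luc males 005 and 002 for Ghr, and GHR-/- female 134 and AAV-HLP-Luc female 016 for Igf1.

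Within 1 group of 6, 12 relations were computed, and 16 were not because the males and females did not overlap in 1 of the genes, so that the mice formed separate clusters. In GHR+/+ livers Ghr and Igf1 gave r = 0.351 (rho 0.429, exact permutation p = 0.492), and r = 0.632 without the 2 farthest mice. The strongest were also in GHR+/+ livers: Ghr and Igfbp1 gave r = -0.766 (rho -0.600, exact permutation p = 0.0681), which turned to 0.241 without the 2 farthest mice and so rested on them. Ghr and Igfbp4 gave r = -0.737 (rho -0.600, exact permutation p = 0.104) and -0.831 without the 2 farthest mice. Neither passed after Benjamini-Hochberg adjustment over the 12 relations.

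Across all 24 mice, the levels of the members followed other genes whose groups lay in the same order, and r is given here only to rank the genes by likeness. The genes most like Igf1 were Wfdc21 (r = 0.924), Lifr (0.919) and Kyat3 (0.918), and among those most opposite were Lpl (-0.883) and Scd2 (-0.862). Ghr had r = 0.817 with Igf1 and came 26th of 1995 genes in that ranking, but 774th in the ranking by deviations from the sex-by-group means. Igfbp1 was most like Scd2 (0.846), a fatty acid desaturase gene, Lpl (0.815), the lipoprotein lipase gene, and Slc25a22 (0.796). It was most opposite to Cyp2c67 (-0.864), Cyp4f14 (-0.849) and Mup3 (-0.842), a major urinary protein gene. Igfbp2 was most like Suclg1 (0.897), Scarb1 (0.895), the HDL receptor gene, and Lpl (0.858), and most opposite to Parva (-0.923), Paqr9 (-0.919) and Slco1a1 (-0.889). Lpl was thus among the genes most opposite to Igf1 and among the 3 most like both Igfbp1 and Igfbp2. Igfbp4 was most like Map2k3 (0.815), Cpt1a (0.736) and Por (0.731), and most opposite to Rhou (-0.886), Abcb11 (-0.810), the bile salt export pump gene, and Znrf2 (-0.768).

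By deviations from the sex-by-group means, a measure that group differences do not enter, other genes came first. They were Pank3 (0.756), Slc25a16 (0.715) and Slc19a2 (0.697) for Igf1 and Slc25a25 (0.758), Sdc4 (0.744) and Tob1 (0.655) for Igfbp1. For Igfbp2 they were Sf1 (0.794), Wdtc1 (0.761) and Hsd17b6 (0.751), and for Igfbp4 Map2k3 (0.902), Reep6 (0.881) and Hrg (0.822). Map2k3 was the gene most like Igfbp4 by both measures. These values are the extremes of 1995 genes over the same 24 libraries and carry no test.

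Igfals and Igfbp3, the partners of IGF1 in its circulating complex, were read from the deposited gene set tables, in which the authors ranked genes within 1 comparison, by a statistic not given in the sources used here, and listed for each set the genes that carried its score (its leading edge). A listing places a gene on the higher or the lower side in the first-named group and gives no size, and the 9 tables share mice, so they are not independent readings. In each of the 9 tables all listings of a given member were on 1 side. Each table ranks a gene once, so its listings there repeat 1 place in 1 ranking. Igfals was listed 236 times in all and stood on the higher side in 7 tables, which were AAV-HLP-mGHR against vector control, GHR+/+ against GHR-/- (both with the sexes pooled and in each sex) and GHR+/+ against AAV-HLP-mGHR. In AAV-HLP-mGHR against vector control it was in the leading edge of 33 sets, 8 of them at the authors' adjusted p under 0.05. Igf1 was listed 4343 times and was on the same side as Igfals in all 9 tables. On the lower side, Igfals was listed by 16 sets in AAV-HLP-Luc against GHR-/- and by 32 sets in male against female GHR+/+, where Igf1 was listed by 315 and 9.

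Igfbp3 divided the comparisons differently from Igfals. It was on the higher side in AAV-HLP-mGHR against vector control with the sexes pooled (113 sets, 14 at the authors' adjusted p under 0.05), in females (114 sets, 18 under it) and in males (11 sets, 0 under it). It was not in any leading edge of the pooled tables of GHR+/+ against GHR-/- and GHR+/+ against AAV-HLP-mGHR. In GHR+/+ against GHR-/- it was on the lower side in males (46 sets, 6 under the threshold) and was listed by 1 set on the higher side in females. In male against female GHR+/+ livers 110 sets listed it on the lower side, 47 of them under the threshold, and in AAV-HLP-Luc against GHR-/- 89 sets did, 10 of them under it. A gene that no leading edge lists can still differ, since a list is shown only for the genes that carried a score.

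Where a leading edge holds several members, their order follows the authors' ranking, and the order was the same in every shared set of a table. Igfals came before Igf1 in AAV-HLP-mGHR against vector control (8 of 8 shared sets), GHR+/+ against AAV-HLP-mGHR (4 of 4), GHR+/+ against GHR-/- (6 of 6) and the female GHR+/+ against GHR-/- table (5 of 5). It came after Igf1 in the male GHR+/+ against GHR-/- table (8 of 8) and in AAV-HLP-mGHR against vector control in males (4 of 4) and in females (8 of 8). Igfbp3 came after Igf1 in all 63 shared sets of the pooled AAV-HLP-mGHR against vector control table and in all 67 of the female one. In AAV-HLP-Luc against GHR-/-, on the lower side, it came before Igf1 in 39 of 39. Ghr followed Igf1 in the 3 tables of AAV-HLP-mGHR against vector control (54, 58 and 59 shared sets) and in the male table of GHR+/+ against GHR-/- (54), and preceded it in the pooled and female tables of GHR+/+ against GHR-/- (42 and 41) and in GHR+/+ against AAV-HLP-mGHR (17).

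**Figure D5:**
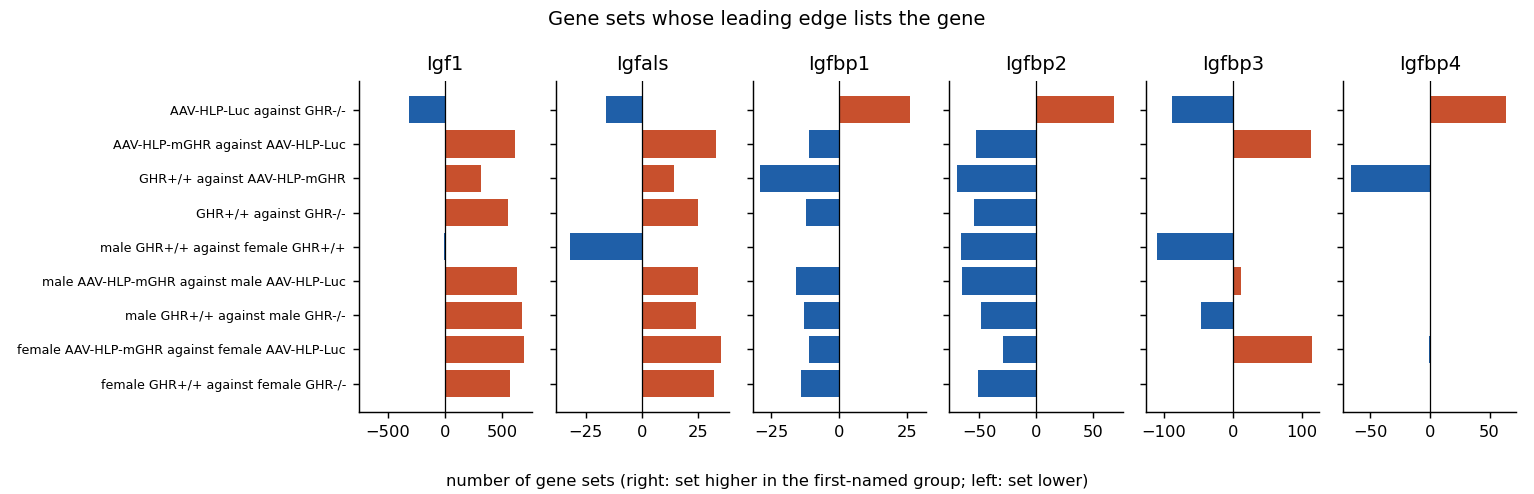
Number of gene sets whose leading edge lists each of the 6 members in the 9 deposited tables; bars to the right are sets higher in the first-named group and bars to the left sets lower in it, and each panel has its own x axis. Igfals lies on the same side as Igf1 in all 9 tables, and Igfbp2 lies on the opposite side in 8 of them, both being on the lower side in male against female GHR+/+.

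The members with counts were listed as well. Igfbp1 was on the lower side in 7 tables and on the higher side in 1, AAV-HLP-Luc against GHR-/- (26 sets, 10 at the authors' adjusted p under 0.05). Igfbp2 was on the lower side in 8 tables and on the higher side in AAV-HLP-Luc against GHR-/- (68 sets, 13 under it). In male against female GHR+/+ livers 66 sets listed Igfbp2 on the lower side, 40 of them under the threshold. Igfbp4 was listed in 3 tables: on the higher side by 64 sets in AAV-HLP-Luc against GHR-/-, on the lower side by 66 sets in GHR+/+ against AAV-HLP-mGHR, and by 1 set on the lower side in the female AAV-HLP-mGHR against vector control table. Each table held 12 sets with insulin-like growth factor in their name. Of those, 10 were on the higher side in AAV-HLP-mGHR against vector control (1 at the authors' adjusted p under 0.05), 9 in GHR+/+ against GHR-/- (1 under it), 6 in GHR+/+ against AAV-HLP-mGHR (of the 12, 2 were under it, 1 on each side) and 2 in AAV-HLP-Luc against GHR-/- (0 under it).

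Around the members, the growth hormone and IGF axis was read through a list of 32 genes, of which 8 were in hand (Ghr, Prlr, Stat3, Stat5b, Ptpn11, Insr, Pik3r1 and Akt2). In AAV-HLP-mGHR against vector control 2 of 8 passed, both higher, beside 1.55% of all genes tested, and the median log2 fold change of the 7 other than Ghr was 0.02, beside -0.01 over all genes. The prolactin receptor gene Prlr had a lowest, median and highest normalized count of 9487, 13396 and 15961 in AAV-HLP-mGHR livers and of 76.4, 1784 and 4576 in AAV-HLP-Luc livers. Its groups did not overlap, and it rose by 3.03 ± 0.64 on the log2 scale (limma adjusted p = 0.0362). Pik3r1, which encodes the regulatory subunit of the kinase that acts below the insulin and IGF1 receptors, rose by 0.63 ± 0.13 (limma adjusted p = 0.0362). In GHR+/+ against GHR-/- 2 of 8 passed, Ghr and Pik3r1, the latter with 0.60 ± 0.16 (limma adjusted p = 0.0164), a share close to the 24.6% of all genes that passed. In GHR+/+ against AAV-HLP-mGHR 1 of 8 passed (Ghr), beside 11.4% of all genes, and in AAV-HLP-Luc against GHR-/- none did. Stat5b, the transcription factor through which the receptor acts on Igf1, gave -0.08 ± 0.14 in AAV-HLP-mGHR against vector control and -0.33 ± 0.12 in GHR+/+ against GHR-/- (limma adjusted p = 0.811 and 0.0705).

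Because Igfbp1 answers to insulin, Pklr, the liver pyruvate kinase gene, which rises on feeding, was read beside it. It was higher in GHR+/+ than in GHR-/- livers by 0.98 ± 0.23 on the log2 scale (limma adjusted p = 0.00988). Its differences were 1.00 ± 0.25 for AAV-HLP-mGHR against vector control (limma adjusted p = 0.0665), 0.51 ± 0.25 for GHR+/+ against AAV-HLP-mGHR (limma adjusted p = 0.178) and -0.55 ± 0.23 for AAV-HLP-Luc against GHR-/- (limma adjusted p = 0.951), none of which passed. Its part in the values of Igfbp1 was not tested.

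Markers of other cell types were sparse in the genes in hand: 2 of 8 Kupffer cell markers, 1 of 6 stellate cell markers, 1 of 4 erythroid markers and no endothelial, cholangiocyte or leukocyte marker. The summed Kupffer cell markers ran from 4791 to 16014 normalized counts over the 24 livers and the stellate cell marker Dcn from 2958 to 9146, with overlapping ranges in all groups. The erythroid marker Hbb-bs was lower in GHR+/+ (median 2408) than in GHR-/- livers (median 3573), with a log2 fold change of -0.56 ± 0.14 (limma adjusted p = 0.0123). Of the hepatocyte markers, Ttr was lower (-0.49 ± 0.12, limma adjusted p = 0.0114) and Serpina1c higher (0.86 ± 0.13, limma adjusted p = 0.00112) in GHR+/+ than in GHR-/- livers. Apoa1 (0.50 ± 0.14, limma adjusted p = 0.0349) and Serpina1c (0.69 ± 0.11, limma adjusted p = 0.00367) were higher in GHR+/+ than in AAV-HLP-mGHR livers, and none of the markers held passed in AAV-HLP-mGHR against vector control or AAV-HLP-Luc against GHR-/-. Their part in the members' values was not tested.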

How the data were processed

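Total liver RNA of 24 mice was sequenced by the study as a stranded library. The authors trimmed reads with fastp, aligned them with Hisat2 to mm39, counted reads per gene with featureCounts (1.5.0-p3) and computed FPKM. Counts and FPKM per mouse were read from the authors' supplementary count tables, of which 1999 and 1301 genes were in hand. The deposited files are 9 tables of gene set results, whose normalized enrichment scores and adjusted p-values the authors made with a gene set tool after DESeq2. From them only the leading edges, the sign of the score and the side of the threshold were used, and neither scores nor p-values are printed. All per-sample columns in hand were mapped to a mouse by its label.

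Size factors were medians of ratios over the genes in hand. Each comparison was fitted with limma-voom (limma 3.58.1, R 4.3.3) on the mice of its 2 groups with the sexes pooled, and p-values were Benjamini-Hochberg adjusted over all genes tested (1999, or 1998 where 1 gene had no read in the mice compared) with a threshold of 0.05. A test of single values was an exact 2-sided permutation test on log2(normalized count + 1), and correlations used the same scale. The fit was tested on simulated data. The alternatives were limma-trend, total-count scaling, sex as a covariate, 1 fit over all libraries, a count minimum of 10, leaving out each mouse and, added after the data were seen, each sex alone. Genes named beside the members were the 3 highest and 3 lowest by Pearson r with a member, the 3 highest by r of deviations, and the genes of fixed lists; some of these genes are not reported here. The members and lists were chosen with earlier results of these data known. Promoter sequences and gene positions came from RefSeq (GRCm38.p6) and GENCODE (GRCm39), and all 1999 gene identifiers matched a symbol.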

Additional observations from a re-analysis of the deposited data

Results flagged for a closer look

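Of 20 sets of 6 livers (Igf1, Igfbp1, Igfbp2, Igfbp4 and Ghr in 4 groups), 1 held a liver far from the others. The normalized count of Igfbp1 in AAV-HLP-Luc female 017 was 42436, while the other 5 AAV-HLP-Luc livers lay between 11439 and 22115. The gap to the nearest of them was 0.656 of the whole range, beyond Dixon's critical value for 6 values. Chance gives about 1 such value in 20 sets.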

How the results depend on the processing

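No paired analysis was possible because the groups share no replicate numbers. No value that passed the threshold changed direction. Some values that did not pass changed sign, not all of them near 0, and none passed then. In AAV-HLP-mGHR against vector control, Igf1 lost its call in 1 fit over all libraries (4.08), while Igfbp1 gained one there (-2.51) and with limma-trend (-2.53), and Igfbp2 lost its call in males alone (-1.14) and females alone (-1.27). In GHR+/+ against GHR-/-, Igfbp1 lost its call in 1 fit over all libraries (-3.28) and Igfbp2 in females alone (-1.48). In GHR+/+ against AAV-HLP-mGHR, Igf1 (1.04) and Igfbp2 (-0.67) lost their calls in females alone, where 3 mice a side remained, and Igfbp1 gained one with limma-trend (-2.20). Leaving out 1 mouse at a time moved Igfbp1 from -2.81 to -2.22 in AAV-HLP-mGHR against vector control and from -3.79 to -2.87 in GHR+/+ against GHR-/-. In GHR+/+ against AAV-HLP-mGHR it moved Igfbp2 from -0.96 to -0.70 and Igfbp4 from -0.33 to -0.23, and between the sexes of GHR-/- it moved Igfbp1 from 0.96 to 1.55. The calls that these fits lost or gained are named with the mice in the text above.

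Among the values that changed sign, Igfbp4 in AAV-HLP-mGHR against vector control became 0.020 scaled by the total reads behind each FPKM and 0.015 in females alone. Leaving out 1 mouse at a time moved it from -0.045 to 0.057, Igfbp4 in GHR+/+ against GHR-/- from -0.050 to 0.031, and Igf1 in AAV-HLP-Luc against GHR-/- from -0.76 to 0.00080. For males minus females it moved Igfbp1 from -1.12 to 0.26 in GHR+/+, from -0.28 to 0.66 in AAV-HLP-Luc and from -1.20 to 0.34 in AAV-HLP-mGHR. It moved Igfbp2 from -0.32 to 0.30 in GHR-/-, from -0.49 to 0.12 in AAV-HLP-Luc and from -0.24 to 0.13 in AAV-HLP-mGHR, and Igfbp4 from -0.087 to 0.098 in AAV-HLP-Luc and from -0.12 to 0.13 in AAV-HLP-mGHR. The difference of the sexes between AAV-HLP-mGHR and vector control moved from -1.26 to 0.27 for Igfbp1, from -0.19 to 0.42 for Igfbp2 and from -0.13 to 0.13 for Igfbp4, and that between GHR+/+ and GHR-/- from -0.080 to 0.091 for Igfbp4. The correlation of Igf1 with Ghr became -0.0378 without GHR+/+ and -0.200 without AAV-HLP-mGHR, that of Igfbp1 with Ghr -0.0216 on FPKM and -0.332 without AAV-HLP-mGHR, and that of Igfbp2 with Ghr -0.176 without the 2 mice farthest from the median and -0.185 without AAV-HLP-Luc. The correlation of Igfbp1 with Igf1 became -0.00535 without the 2 farthest mice, -0.0576 without AAV-HLP-Luc and -0.0377 without AAV-HLP-mGHR, and that of Igfbp4 with Igf1 0.131 on FPKM and 0.0696 without GHR+/+.

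The number of genes called in AAV-HLP-mGHR against vector control was 31, became 50 with sex as a covariate and ran from 19 (without AAV-HLP-Luc 001, AAV-HLP-Luc 002 or AAV-HLP-mGHR 019) to 46. In GHR+/+ against AAV-HLP-mGHR it was 228, became 145 scaled by the total reads behind each FPKM and 357 with sex as a covariate, and ran from 115 (without GHR+/+ 102 or 103) to 320, with 123 without AAV-HLP-mGHR 008 and 131 without AAV-HLP-mGHR 019. All 42 alternatives of the correlations stayed short of the threshold. The cause of these changes was not tested. The lowest mean count in hand was 1123, each group held 6 mice and each sex in it 3, and 3.52% of the study's genes have a count here, Igfals and Igfbp3 not among them.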

Other observations

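Beyond IGF1 and its binding proteins, Prlr had the widest spread of the 8 axis genes in hand. Its lowest, median and highest normalized counts were 1775, 7198 and 21835 in GHR+/+ livers and 118, 4397 and 7516 in GHR-/- livers. These ranges overlapped, and the difference of 1.09 ± 1.01 on the log2 scale did not pass (limma adjusted p = 0.457). GHR+/+ and AAV-HLP-mGHR livers overlapped as well, at -1.12 ± 0.62 (limma adjusted p = 0.237). Pik3r1 averaged 3608 ± 607 (SD, n = 6) normalized counts in GHR+/+ and 3655 ± 630.3 in AAV-HLP-mGHR livers, against 2388 ± 489.5 in GHR-/- and 2318 ± 339.6 in AAV-HLP-Luc livers.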
